A study of Mus musculus with 6 samples.

Results

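A set of 32 genes of hypoxia and glycolysis, of 32285 features counted, was followed in nuclei of mouse cortical lesions. The 32 genes were taken as a list of names, with no threshold on their values, but the list was chosen with earlier results of these data known. By role they comprise 13 glycolytic enzymes (Hk1, Hk2, Gpi1, Pfkl, Pfkp, Aldoa, Tpi1, Gapdh, Pgk1, Pgam1, Eno1, Pkm and Ldha), 4 regulators of fuel use (Pfkfb3, Pfkfb4, Pdk1 and Gys1), 4 genes of lactate and pH handling (Slc16a1, Slc16a3, Car9 and Car12), 3 oxygen-dependent dioxygenases (Egln1, Egln3 and Kdm3a) and 8 further targets of the hypoxia response (Bnip3, Bnip3l, Ndrg1, Ddit4, Adm, Mxi1, Higd1a and Ankrd37). The question was which cells of the lesion hold these transcripts at 7 and 21 days post-injury (dpi), and how their levels differ after deletion of the TGFβ receptor in fibroblasts and after antibody blockade of integrin αvβ8.

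When oxygen is low, the prolyl hydroxylases encoded by the Egln genes slow down, and the α subunits of hypoxia-inducible factors (HIFs) escape degradation. HIF dimers bind short DNA motifs near their target genes and raise glycolytic enzymes, lactate export and mitophagy, and the same enzymes are used by activated macrophages, dividing cells and matrix-producing fibroblasts. A photothrombotic lesion, in which light and a dye close cortical vessels, loses its blood supply at the start and is then filled by myeloid cells and fibroblasts.

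The libraries came from photothrombotic (PT) lesions of adult C57BL/6 mice, dissected for single-nucleus RNA sequencing. Ctrl was wild-type, ADWA11 was wild-type given the αvβ8-blocking antibody of that name weekly from the day of injury, and Tgfbr2-cKO carried Col1a2(creER) and Tgfbr2(flox), in which tamoxifen deletes the type II TGFβ receptor in cells that use the Col1a2 promoter. Each group was sampled at 7 and at 21 dpi in 1 library that pooled 1 male and 1 female mouse, so a value from female or male nuclei alone is that of 1 mouse. With 1 library in each of the 6 groups there is no replicate and no test. Differences are log2 ratios between 2 libraries with exact conditional 95% intervals, which cover counting error only and not the spread between mice.

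The 6 libraries held 7205 to 14246 barcodes, 67360 in all, with 64798965 to 140310354 unique molecular identifiers (UMIs), and 61917 nuclei were kept. Libraries shared at most 1.94% of their barcodes. Cell classes were rebuilt from marker genes, with the 32 genes left out of the clustering, so "fibroblast-like" and "myeloid-like" are names given here. Levels are given as CPM, the UMIs of a gene scaled to 1000000 non-mitochondrial UMIs of the cells named. Over the 6 libraries the 10 fibroblast markers together were at 4006 to 10222 CPM in fibroblast-like and 54.6 to 971 CPM in myeloid-like nuclei, and the 9 myeloid markers at 144 to 235 CPM and 2794 to 3385 CPM. The Tgfbr2-cKO library at 7 dpi stood apart: 5941 of its 10594 kept nuclei were neuron-like, and it held 336 fibroblast-like nuclei against 1974 in Ctrl. Where 3 values are given without group names, they stand in the order Ctrl, ADWA11, Tgfbr2-cKO. Tgfbr2 itself in fibroblast-like nuclei was at 315, 241 and 231 CPM at 7 dpi and at 218, 187 and 185 CPM at 21 dpi. Its log2 ratio to Ctrl was -0.44 and -0.24 in Tgfbr2-cKO and -0.38 and -0.22 in ADWA11, where the gene is intact, and UMIs of single exons were not analysed here.

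HIF-bound sites contain the core ACGTG or GCGTG, and these letters were looked for on both strands of the promoters, so CACGT and CACGC were counted too and CACGTG counts as 2 overlapping matches. RefSeq windows of 300 bases on GRCm38.p6 were found for 30 of the 32 genes, all but Bnip3l and Ndrg1. ACGTG was present in a window of 19 of the 30 genes (63.3%), against 21.8% of 27025 genes. GCGTG was present in 18 (60%), against 35.2%, and at least 1 of both in 26 (86.7%), against 46.7%. The members' windows were richer in G and C, with a median of 63.3% against 52.7%, and the part of base composition in these shares was not tested. Members were ordered by the number of pairs of class (fibroblast-like or myeloid-like) and comparison in which they are called below. The promoters of the first 4 whose RefSeq start lies within 50 bases of the annotated start are shown. Ndrg1, Pfkl and Ankrd37, called in at least as many pairs as the last of them, had no such window. The sequences run from 250 bases before the RefSeq start to 30 bases after it, 5′ to 3′, with the matched letters in capitals. Bnip3, a mitophagy receptor, had 2 matches to ACGTG and 3 to GCGTG (chr7:138909477-138909756, minus strand). Slc16a1, the monocarboxylate transporter MCT1, had 3 and 2 (chr3:104638414-104638693, plus strand). Adm, the vasodilator peptide adrenomedullin, had 0 and 2 (chr7:110627407-110627686, plus strand). Hk2, the inducible hexokinase at the entry of glycolysis, had 2 and 0 (chr6:82774425-82774704, minus strand).
Bnip3: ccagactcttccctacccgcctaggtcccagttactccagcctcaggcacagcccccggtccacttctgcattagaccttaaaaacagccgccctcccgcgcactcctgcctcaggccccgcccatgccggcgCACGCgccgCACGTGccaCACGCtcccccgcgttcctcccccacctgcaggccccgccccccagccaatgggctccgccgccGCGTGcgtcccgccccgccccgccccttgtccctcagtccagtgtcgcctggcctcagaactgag
Slc16a1: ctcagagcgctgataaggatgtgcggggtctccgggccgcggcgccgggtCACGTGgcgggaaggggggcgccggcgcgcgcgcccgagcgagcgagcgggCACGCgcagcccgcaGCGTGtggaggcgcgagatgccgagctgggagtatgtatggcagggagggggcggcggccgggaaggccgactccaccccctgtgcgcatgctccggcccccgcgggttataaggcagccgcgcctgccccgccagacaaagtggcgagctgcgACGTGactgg
Adm: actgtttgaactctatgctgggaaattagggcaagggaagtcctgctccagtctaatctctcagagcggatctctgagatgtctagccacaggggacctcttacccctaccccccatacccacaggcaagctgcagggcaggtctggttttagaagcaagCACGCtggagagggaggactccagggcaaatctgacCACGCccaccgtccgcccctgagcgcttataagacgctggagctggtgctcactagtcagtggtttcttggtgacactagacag
Hk2: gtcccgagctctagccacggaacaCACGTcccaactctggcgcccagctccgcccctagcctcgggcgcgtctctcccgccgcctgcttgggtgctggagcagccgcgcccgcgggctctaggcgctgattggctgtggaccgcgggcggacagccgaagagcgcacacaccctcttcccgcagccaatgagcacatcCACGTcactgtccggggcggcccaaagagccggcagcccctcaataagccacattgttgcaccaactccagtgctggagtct
A match describes the letters in the window and is not evidence of binding in these cells.

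Over all kept nuclei the 32 genes together took 1296, 1177 and 1116 CPM at 7 dpi and 1034, 1011 and 1197 CPM at 21 dpi. The lesion as a whole therefore spanned a narrow range, while the classes that held the transcripts differed. Each share is given with the class's share of all UMIs. Myeloid-like nuclei held 55.7% of the members' UMIs in Ctrl at 7 dpi, with 45.1% of all UMIs, and 25.7% at 21 dpi, with 20.02% of all. Fibroblast-like nuclei held 21.6% and 37.0%, with 30.2% and 46.4% of all UMIs. In Tgfbr2-cKO at 7 dpi neuron-like nuclei held 74.6%, with 82.6% of all.

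Per UMI, the myeloid-like class was the highest of the named classes in Ctrl at both times. It stood at 1602 CPM (95% Poisson interval 1586 to 1618) at 7 dpi and 1330 CPM at 21 dpi, against 926 CPM (911 to 941) and 825 CPM in fibroblast-like nuclei. The log2 ratio of myeloid-like over fibroblast-like was 0.79 (0.76 to 0.82) and 0.69 (0.66 to 0.72). T cell-like nuclei were at 1435 and 1264 CPM, astrocyte-like nuclei at 1190 and 1299 CPM and endothelial-like nuclei at 1107 and 1112 CPM, so that at 21 dpi the T cell-like and astrocyte-like classes lay near the myeloid-like class. Neuron-like nuclei stood at 1160 and 895 CPM, and oligodendrocyte precursor-like nuclei at 913 and 733 CPM. Mural-like nuclei, with 987 and 955 CPM, lay near the fibroblast-like level. The fibroblast-like class was thus among the lowest of the lesion in Ctrl for the summed set, ahead of the oligodendrocyte precursor-like nuclei.

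**Figure D1:**
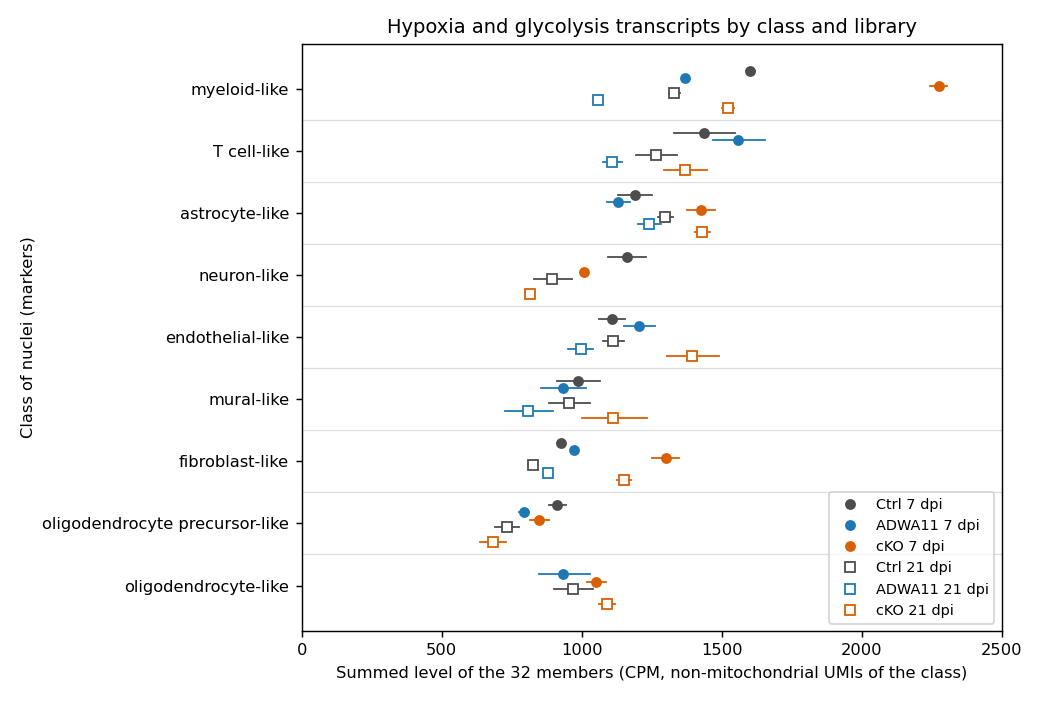
Summed CPM of the 32 genes (horizontal axis, from 0) in 9 cell classes of each library with at least 50 nuclei, with filled circles for 7 dpi, open squares for 21 dpi, grey for Ctrl, blue for ADWA11, orange for Tgfbr2-cKO and lines for 95% Poisson intervals. Myeloid-like nuclei span 1058 to 2275 CPM, with Tgfbr2-cKO at 7 dpi at the right, and fibroblast-like nuclei span 825 to 1300 CPM.

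Few members in Ctrl were at least 2 times as high in 1 named class as in the next, among named classes with at least 50 nuclei. Hk2 was the clearest: in Ctrl at 7 dpi it was at 189.8 CPM in myeloid-like nuclei and at 41.2 CPM in astrocyte-like nuclei, the next named class, a ratio of 4.61 (3.51 to 6.18), and at 21 dpi the ratio was 3.87. Against the unnamed clusters 16 and 24, which held Hk2 at 92.4 and 79.8 CPM at 7 dpi, the gap was smaller. Ndrg1, a stress-responsive gene linked to myelin and differentiation, was highest in endothelial-like nuclei at 7 dpi, with 90.7 CPM against 22.5 CPM in mural-like nuclei. The 46 oligodendrocyte-like nuclei of that library, too few for the ranking, held it at 53.7 CPM on 14 UMIs, and at 21 dpi oligodendrocyte-like nuclei led with 165 CPM against 142 CPM in endothelial-like nuclei. Ldha, the lactate dehydrogenase subunit that favours lactate, was highest in T cell-like nuclei at 7 dpi, with 87.9 CPM on 43 UMIs against 30.1 CPM in astrocyte-like nuclei. Gapdh among the named classes was also highest there, with 77.7 CPM on 38 UMIs against 34.9 CPM in myeloid-like nuclei. The unnamed cluster 24, of 75 nuclei, lay far above for both genes, with Gapdh at 1436 CPM and Ldha at 356 CPM, and the unnamed cluster 16 held Gapdh at 60.3 CPM. T cell-like nuclei of Ctrl at 7 dpi had a median of 2741 UMIs, with 3.62% of UMIs mitochondrial and 1.16% ribosomal, against 5349, 0.852% and 0.374% in myeloid-like nuclei, and the part of this in the levels of Ldha and Gapdh was not tested.

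At 21 dpi in Ctrl, the fibroblast-like class led for Egln3 and Adm. Egln3, the most hypoxia-inducible of the prolyl hydroxylases, was at 35.7 CPM against 16.3 CPM in T cell-like nuclei, and Adm was at 4.12 CPM against 1.62 CPM in endothelial-like nuclei. Ddit4, an inhibitor of mTORC1 that responds to hypoxia and glucocorticoids, was highest in endothelial-like nuclei, with 41.1 CPM against 17.4 CPM in T cell-like nuclei, and stood at 38.3 CPM on 9 UMIs in the unnamed cluster 24. Car12 was highest in neuron-like nuclei, with 12.3 CPM on 9 UMIs. These were the members whose highest named class was at least 2 times the next named class.

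A member is called higher or lower between 2 libraries when it differs by at least 1.5-fold, its interval leaves out a ratio of 1, and both libraries hold at least 50 of its UMIs together. The same rule over all genes gives the background printed beside each count. In a sum over a class, fewer expressing nuclei and less RNA per nucleus cannot be told apart.

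In fibroblast-like nuclei of Tgfbr2-cKO the set was higher at both times. The summed level was 1300 CPM (1252 to 1349) against 926 CPM at 7 dpi, a log2 ratio of 0.49 (0.43 to 0.55), and 1151 against 825 CPM at 21 dpi, a log2 ratio of 0.48 (0.45 to 0.51). At 7 dpi 13 of the 27 members with enough UMIs were higher, where 10.9% of all genes were, and 0 were lower, where 5.37% were. At 21 dpi 10 of 30 were higher, where 12.6% of all genes were, and 0 were lower, where 12.9% were. The median log2 ratio of the members was 0.54 and 0.28, against 0.08 and -0.02 over all genes.

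By role, at 7 dpi the glycolytic enzymes were at 523 CPM in Tgfbr2-cKO against 353 CPM in Ctrl (log2 ratio 0.57), and at 21 dpi at 345 against 276 CPM (0.32). The further hypoxia targets were at 313 against 211 CPM (0.57) at 7 dpi and at 442 against 240 CPM (0.88) at 21 dpi, the latter mostly through Mxi1. The 3 dioxygenases differed least, with 0.16 and 0.08.

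Of the enzymes, Eno1 (chr4:150236721-150248879, plus strand, GRCm38), the enolase of lower glycolysis, was at 12.7, 16.3 and 36.9 CPM at 7 dpi and at 11.4, 11.3 and 15.6 CPM at 21 dpi. Only the Tgfbr2-cKO value at 7 dpi lay apart, with a log2 ratio of 1.54 (1.15 to 1.92), against 0.45 at 21 dpi. Pfkl (chr10:77986947-78010083, minus strand), the liver-type phosphofructokinase, was at 9.26, 9.11 and 20.6 CPM at 7 dpi and at 6.22, 6.25 and 10.6 CPM at 21 dpi. It was higher in Tgfbr2-cKO at both times, by 1.15 (0.63 to 1.64) and 0.77 (0.38 to 1.14), and level with Ctrl in ADWA11. Pfkp, Tpi1, Pgk1, Pgam1, Pkm and Ldha were also called higher at 7 dpi, with log2 ratios from 0.63 to 0.99, and Tpi1 (0.67) and Pgk1 (0.73) at 21 dpi too.

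Hk2 was called at 21 dpi and not at 7 dpi. Its level was 23, 17.9 and 27.1 CPM at 7 dpi and 14.4, 21.6 and 33.4 CPM at 21 dpi. At 7 dpi Tgfbr2-cKO differed from Ctrl by 0.24, short of the fold, and at 21 dpi by 1.22 (1.00 to 1.44). The 21 dpi value was 1.57 in female and 0.71 in male nuclei.

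Pdk1, the kinase that closes the mitochondrial entry of pyruvate, was at 33.7, 45.2 and 76.7 CPM at 7 dpi and at 39.6, 29.9 and 62.2 CPM at 21 dpi. Tgfbr2-cKO was the highest library at each time, with log2 ratios of 1.19 (0.93 to 1.44) and 0.65 (0.50 to 0.80). Gys1, the muscle-type glycogen synthase, was called higher at 21 dpi (0.80). Slc16a3, the lactate exporter MCT4, was scarce, at 3.67, 5.01 and 9.82 CPM at 7 dpi and 1.92, 1.24 and 2.27 CPM at 21 dpi. Its log2 ratio in Tgfbr2-cKO was 1.42 (0.63 to 2.16) at 7 dpi and 0.24 at 21 dpi.

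Among the hypoxia targets, Bnip3 was at 7.46, 12.7 and 20.1 CPM at 7 dpi and at 10.6, 17 and 16.1 CPM at 21 dpi. Ndrg1 (chr15:66929318-66969640, minus strand) was at 18.6, 43.9 and 46.7 CPM at 7 dpi and at 75.3, 138 and 119 CPM at 21 dpi. Both genes were lowest in Ctrl at each time. For Bnip3 the log2 ratios in Tgfbr2-cKO were 1.43 (0.90 to 1.94) and 0.60 (0.30 to 0.90), and for Ndrg1 1.33 (0.99 to 1.66) and 0.66 (0.55 to 0.77).

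Mxi1 (chr19:53310518-53375810, plus strand) encodes an antagonist of MYC. It was at 137, 141 and 175 CPM at 7 dpi and at 90.4, 75.6 and 233 CPM at 21 dpi, so that only Tgfbr2-cKO at 21 dpi stood out, with a log2 ratio of 1.37 (1.28 to 1.45) against Ctrl. Without Mxi1, which held 12.8% of the members' UMIs in fibroblast-like nuclei, the summed log2 ratio at 21 dpi was 0.32.

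**Figure D2:**
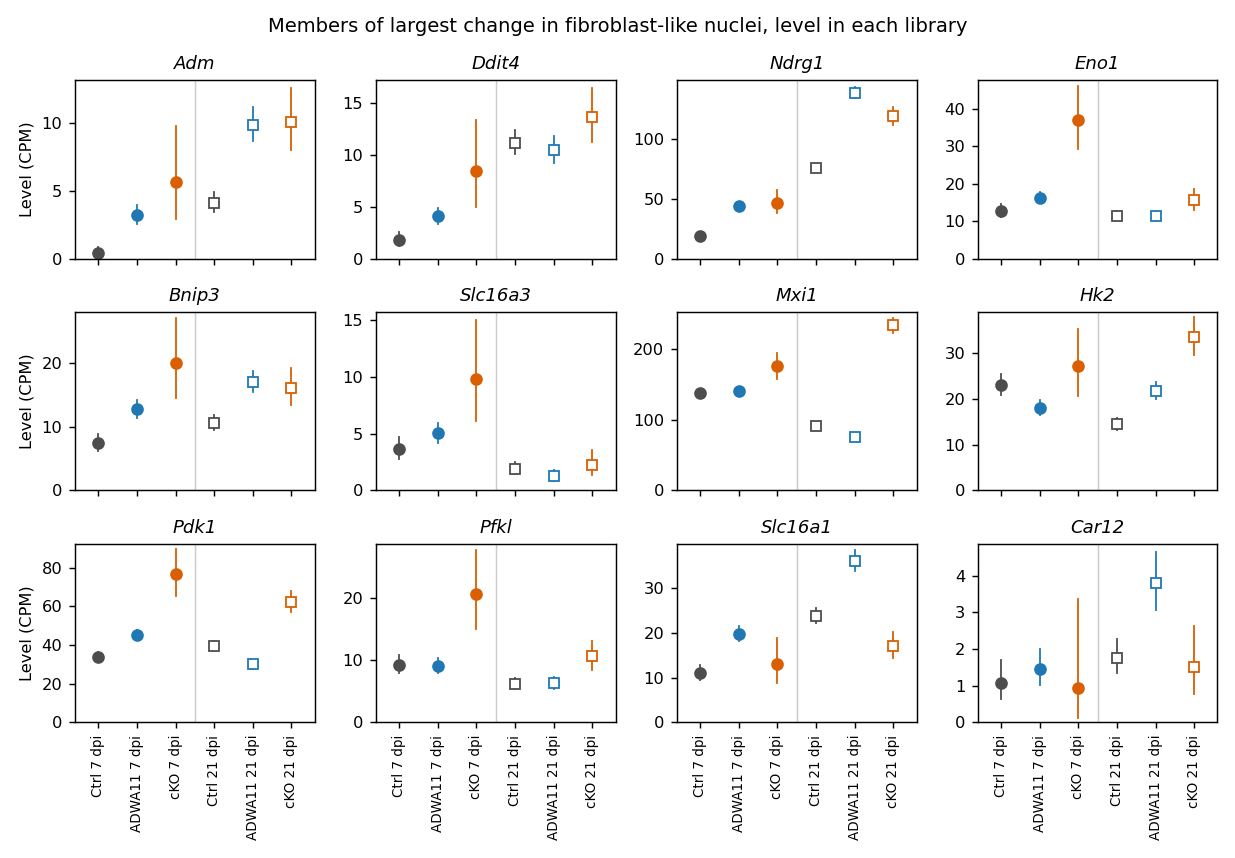
CPM (vertical axes, from 0) of 12 members in fibroblast-like nuclei of the 6 libraries, 1 panel a gene, with lines for 95% Poisson intervals. Ndrg1 and Bnip3 are lowest in Ctrl at each time, Eno1 stands out in Tgfbr2-cKO at 7 dpi (36.9 CPM), and Mxi1 in Tgfbr2-cKO at 21 dpi (233 CPM).

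ADWA11 left the summed level of fibroblast-like nuclei close to Ctrl, at 973 and then 880 CPM, or log2 ratios of 0.07 (0.04 to 0.10) and 0.09 (0.07 to 0.12). The enzymes were level, with role ratios of -0.05 and -0.02, and so were the fuel regulators (0.00 and -0.00). A smaller group stood above Ctrl. At 7 dpi 6 of 31 members were higher (Slc16a1, Car9, Bnip3, Ndrg1, Ddit4 and Adm), where 11.7% of all genes were, and 0 were lower, where 5.21% were. At 21 dpi 6 of 30 were higher (Hk2, Slc16a1, Car12, Bnip3, Ndrg1 and Adm), where 7.82% of all genes were, and 1 was lower (Egln3), where 5.25% were.

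Adm was nearly absent from fibroblast-like nuclei in Ctrl at 7 dpi, with 0.421 CPM on 7 UMIs, and reached 3.21 CPM in ADWA11 and 5.61 CPM (12 UMIs) in Tgfbr2-cKO. At 21 dpi it was at 4.12, 9.86 and 10.1 CPM. ADWA11 differed from Ctrl by 2.93 (1.83 to 4.29) and 1.26 (0.95 to 1.58) on the log2 scale, and Tgfbr2-cKO at 21 dpi by 1.29 (0.87 to 1.70). Ndrg1 differed in ADWA11 by 1.24 (1.06 to 1.43) and 0.88 (0.80 to 0.95), and Bnip3 by 0.77 (0.47 to 1.08) and 0.68 (0.47 to 0.89).

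The lactate and pH genes were the role group in which ADWA11 exceeded Ctrl by over 1.5-fold at both times, with 28 against 16.7 CPM at 7 dpi (0.75) and 42.1 against 27.9 CPM at 21 dpi (0.59). This rested on Slc16a1, at 11, 19.8 and 13.1 CPM at 7 dpi and at 23.8, 36 and 17.2 CPM at 21 dpi. Here ADWA11 was the highest library at each time, with log2 ratios of 0.85 (0.60 to 1.10) and 0.60 (0.46 to 0.74), and the 21 dpi value of Tgfbr2-cKO was below Ctrl (-0.47). Car12, a membrane carbonic anhydrase, was at 1.08, 1.45 and 0.935 CPM at 7 dpi and at 1.76, 3.81 and 1.51 CPM at 21 dpi, with a log2 ratio of 1.11 (0.62 to 1.61) in ADWA11 at 21 dpi. Over the series Car12 was at 70.9 CPM in fibroblast sub-cluster 9, described below, and at 0.278 to 3.01 CPM in the others. At 21 dpi sub-cluster 9 held 16 of its UMIs in Ctrl and 82 in ADWA11, on 63 and 107 nuclei. In the class Egln3 went the other way under ADWA11 at 21 dpi, with 20.3 against 35.7 CPM (-0.81, -0.97 to -0.66). At 21 dpi 3 of 28 members were higher in ADWA11 in female nuclei alone, where 6.8% of all genes were, and 4 of 29 in male nuclei alone, where 7.76% were.

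Between 7 and 21 dpi in Ctrl the fibroblast-like level went from 926 to 825 CPM (log2 ratio -0.17, -0.19 to -0.14). Of 30 members 5 were higher at 21 dpi (Slc16a1, Ndrg1, Ddit4, Adm and Higd1a), where 20.4% of all genes were, and 5 were lower (Hk2, Gapdh, Pkm, Slc16a3 and Mxi1), where 11.7% were. Both shares lie near the background or under it. Individual genes nevertheless differed widely, with Adm at 3.29 (2.21 to 4.63), Ddit4 at 2.63 (2.09 to 3.22) and Ndrg1 at 2.02 (1.85 to 2.19). Ddit4 was at 1.8, 4.06 and 8.41 CPM at 7 dpi and at 11.1, 10.5 and 13.6 CPM at 21 dpi, so that the 7 dpi libraries lay below the 21 dpi libraries. Slc16a3 was lower by a log2 ratio of -0.93 (-1.47 to -0.40), Hk2 by -0.68 and Mxi1 by -0.60. For Hk2 male nuclei alone gave 0.013 and female nuclei -1.28.

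In fibroblast-like nuclei 9 members, Hk1, Gpi1, Aldoa, Pfkfb3, Pfkfb4, Egln1, Kdm3a, Bnip3l and Ankrd37, were past the fold in none of the 5 comparisons. Ankrd37, with 2 to 23 UMIs a library, was under the 50 UMIs needed. Aldoa for example ran from 13.2 to 20.4 CPM over the 6 libraries, Kdm3a from 91.7 to 148 CPM and Egln1 from 27.7 to 41 CPM.

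The fibroblast-like class was made of different sub-clusters in different libraries. Sub-clusters 2, 6 and 9 carried myofibroblast markers. In sub-cluster 9 these were Cthrc1, Lrrc15 and Tnc, while its leading genes included Smpd3, Col22a1, Bglap and Bglap2. Sub-cluster 2 held 1018 of 1974 nuclei in Ctrl at 7 dpi and 134 of 336 in Tgfbr2-cKO. At 21 dpi sub-cluster 0, unnamed and led by Slc47a1 and Slc47a2, held 2022 of 4563 nuclei in Ctrl and 98 of 895 in Tgfbr2-cKO, where sub-cluster 3, with arachnoid markers, held 394 and the unnamed sub-cluster 7 held 318. The sub-clusters with the lowest summed levels over the series, 5 and 6 at 689 and 678 CPM, held 1052 and 501 nuclei in Ctrl and 0 in Tgfbr2-cKO at 21 dpi, and at 7 dpi sub-cluster 6 held 197 nuclei in Ctrl and 2 in Tgfbr2-cKO. Within sub-cluster 2 at 7 dpi the summed log2 ratio of Tgfbr2-cKO was 0.43 (0.34 to 0.51), with 9 of 26 members higher, where 9.78% of all genes were. Eno1 there was at 48.3 against 13.3 CPM, Bnip3 at 27.9 against 5.82 CPM and Ndrg1 at 42.9 against 13.7 CPM. Within the leptomeningeal-like sub-cluster 4 the ratio at 7 dpi was 0.34, with 6 of 18 members higher, where 6.64% were.

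At 21 dpi the within-sub-cluster ratios were smaller than that of the class, with 0.38 (0.29 to 0.48) in sub-cluster 0, 0.19 (0.13 to 0.25) in the arachnoid-like sub-cluster 3 and 0.18 in sub-cluster 4. Members called within them went in both directions. In sub-cluster 3 Tpi1, Pgk1 and Mxi1 were higher and Slc16a1, Egln3 and Higd1a lower. In sub-cluster 0 Hk2, Pfkp, Ldha, Slc16a1 and Ndrg1 were higher and Egln1 lower. In sub-cluster 4 Pdk1, Gys1 and Mxi1 were higher and Ndrg1 lower. Mxi1 in the arachnoid-like nuclei differed by 0.64 (0.51 to 0.76), against 1.37 in the class, and over the whole series it was at 250 CPM in that sub-cluster and at 267 CPM in sub-cluster 4, against 67.5 CPM in sub-cluster 0. Hk2 in sub-cluster 0 differed by 1.93 (1.40 to 2.43), more than in the class. Adm, at 8 UMIs in sub-cluster 0 of Tgfbr2-cKO, differed there by 0.42 (-0.84 to 1.45). Giving sub-clusters equal weight, the class ratio was 0.38 at 7 dpi and 0.24 at 21 dpi.

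The makeup of the class also moved with ADWA11 and with time. At 21 dpi sub-cluster 0 held 2295 of 3220 fibroblast-like nuclei in ADWA11 against 2022 of 4563 in Ctrl, and the unnamed sub-cluster 5 held 27 against 1052. Over the series Ndrg1 was at 132 CPM in sub-cluster 0 and at 37 CPM in sub-cluster 5, and Adm at 8.93 and 0.682 CPM. Within sub-cluster 0 the ADWA11 ratios at 21 dpi were smaller than in the class, with Ndrg1 at 0.52 (0.43 to 0.61), Bnip3 at 0.36 (0.10 to 0.62), Slc16a1 at 0.32 (0.16 to 0.49) and Adm at 0.79 (0.44 to 1.15). Of these 4 genes Adm alone stayed past 1.5-fold there, and Egln3 differed by -1.11 (-1.35 to -0.88). Within the arachnoid-like sub-cluster 3 at 21 dpi Ndrg1, Bnip3 and Slc16a1 were called higher in ADWA11, and within sub-cluster 4 Ndrg1 was. In sub-clusters 6 and 9 none of the 4 genes was called. At 7 dpi the arachnoid-like sub-cluster 3 held 519 of 2595 nuclei in ADWA11 and 116 of 1974 in Ctrl, and within sub-cluster 2 the ratios were 1.15 for Ndrg1, 1.14 for Bnip3 and 0.83 for Slc16a1.

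Between times in Ctrl, sub-cluster 0 went from 63 to 2022 nuclei and sub-cluster 2 from 1018 to 71. Sub-cluster 2 held Ndrg1 at 25.4 CPM over the series, Ddit4 at 2.58 CPM and Adm at 1.98 CPM, against 132, 11.2 and 8.93 CPM in sub-cluster 0. Within sub-clusters Ndrg1 was higher at 21 dpi by 2.09 (1.56 to 2.60) in sub-cluster 2, by 1.54 in the arachnoid-like sub-cluster 3 and by 2.11 in sub-cluster 4, but not in sub-cluster 0 (-0.38, -0.73 to -0.0027). For Ddit4 and Adm sub-cluster 0 held 2 and 1 UMIs at 7 dpi. With sub-clusters weighted equally the summed ratio between times was -0.0065, against -0.17 in the class.

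Neuron transcripts were more frequent in the fibroblast-like nuclei of Tgfbr2-cKO, with 185 CPM of 7 neuron markers at 7 dpi and 65.8 CPM at 21 dpi against 8.30 and 5.60 CPM in Ctrl. Oligodendrocyte markers there were at 93 against 18.2 CPM at 7 dpi and at 137 against 31.7 CPM at 21 dpi, and astrocyte markers at 1062 against 823 CPM and 1030 against 450 CPM. The fibroblast markers themselves were lower, at 6637 against 10222 CPM and 4006 against 8637 CPM. Neuron-like nuclei of the Tgfbr2-cKO library at 7 dpi held the 32 genes at 1007 CPM. Fibroblast-like nuclei at 7 dpi held them at 926 CPM in Ctrl and at 1300 CPM in Tgfbr2-cKO. Ribosomal transcripts, at 0.281% against 0.260% of UMIs, and median UMIs per nucleus, at 5742.5 against 7917.5, also differed at 7 dpi. Their part in the result was not tested.

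In myeloid-like nuclei Tgfbr2-cKO was again the highest library, most of all at 7 dpi. The summed level was 2275 CPM (2243 to 2307) against 1602 CPM in Ctrl at 7 dpi, a log2 ratio of 0.51 (0.48 to 0.53), and 1522 against 1330 CPM at 21 dpi, 0.19 (0.17 to 0.22). At 7 dpi 15 of 29 members were higher, where 14.8% of all genes were, and 0 were lower, where 6.5% were. At 21 dpi only 3 of 30 were higher (Pfkl, Ddit4 and Mxi1), where 8.3% of all genes were, and 2 were lower (Slc16a1 and Ankrd37), where 9.1% were. The members' median log2 ratio was 0.61 and 0.06, against 0.06 and 0.02 over all genes.

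At 7 dpi the difference ran through the roles, with glycolytic enzymes at 1105 against 734 CPM (0.59), the dioxygenases at 312 against 215 CPM (0.54), the further hypoxia targets at 323 against 226 CPM (0.51) and the fuel regulators at 504 against 410 CPM (0.30). Egln3 (chr12:54178981-54203860, minus strand) had the largest single ratio. It was at 18.1, 12.9 and 72.2 CPM at 7 dpi and at 13.4, 1.17 and 14.9 CPM at 21 dpi. Its log2 ratio in Tgfbr2-cKO was 1.99 (1.82 to 2.17) at 7 dpi and 0.16 at 21 dpi.

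Bnip3 was at 18.4, 21 and 47.7 CPM at 7 dpi and at 18, 8.81 and 18.9 CPM at 21 dpi, with log2 ratios in Tgfbr2-cKO of 1.38 (1.18 to 1.57) and 0.07. Slc16a3 was at 9.11, 7.69 and 21.4 CPM at 7 dpi and at 9.26, 2.28 and 8.16 CPM at 21 dpi, with 1.24 (0.95 to 1.52) and -0.18. Of the enzymes, Tpi1, the triose isomerase, was at 22.1, 23.6 and 48.6 CPM and then at 20.1, 14.3 and 24.4 CPM, with 1.14 (0.95 to 1.32) and 0.28. These 3 genes stood out in Tgfbr2-cKO at 7 dpi and not at 21 dpi.

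Pgk1, the first enzyme of glycolysis to make ATP, was at 25.4, 30.9 and 53.8 CPM at 7 dpi and at 21.1, 12.3 and 17.4 CPM at 21 dpi, with log2 ratios of 1.08 (0.91 to 1.26) and -0.28. Higd1a, a mitochondrial protein induced by hypoxia, was at 8.26, 9.46 and 18 CPM and then at 12.3, 10.8 and 10.5 CPM, with 1.12 (0.81 to 1.43) and -0.23. Pfkl differed in the same direction at both times, with 31.7, 18.3 and 56.5 CPM and then 23.8, 8.14 and 35.8 CPM, ratios of 0.83 (0.67 to 1.00) and 0.59 (0.38 to 0.80). Ldha (0.85), Eno1 (0.85), Pdk1 (1.07) and Gys1 (1.05) were also called higher at 7 dpi. Hk2, the member most concentrated in this class, was at 190, 103 and 278 CPM at 7 dpi, a Tgfbr2-cKO ratio of 0.55 that fell short of the fold.

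**Figure D3:**
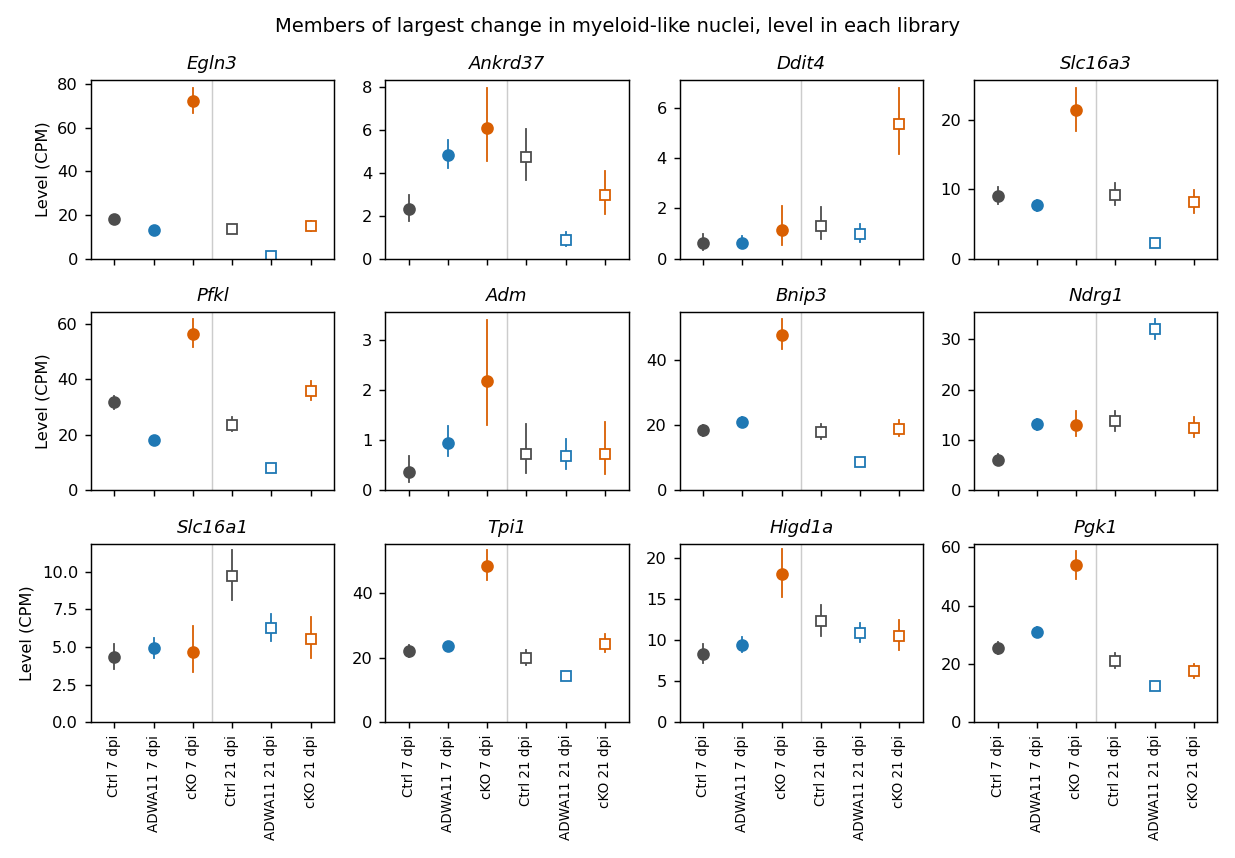
CPM (vertical axes, from 0) of 12 members in myeloid-like nuclei of the 6 libraries, 1 panel a gene, with lines for 95% Poisson intervals. Egln3, Bnip3, Slc16a3, Tpi1 and Pgk1 are highest in Tgfbr2-cKO at 7 dpi, and Egln3 is lowest in ADWA11 at 21 dpi (1.17 CPM).

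The myeloid-like class of Tgfbr2-cKO at 7 dpi was mostly sub-cluster 1 (1667 of 2249 nuclei), which carried Siglech, a gene of microglia, together with Nrg3, Syt1 and Snap25, genes of neurons. In Ctrl the same sub-cluster held 510 of 4104 nuclei, and sub-cluster 3, led by stromal genes, held 1309. Within sub-cluster 1 the summed level was 2237 against 2076 CPM, a log2 ratio of 0.11 (0.07 to 0.15), with 5 of 27 members higher, where 14.9% of all genes were. Egln3 there differed by 0.38 (0.11 to 0.66) and Bnip3 by 0.02 (-0.29 to 0.33), while Pdk1 differed by 0.98 (0.74 to 1.22). So within the sub-cluster that held most of the class, the members' share was close to the background.

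Larger ratios came from smaller sub-clusters. In the proliferating sub-cluster 5 the summed log2 ratio was 0.40, with 11 of 25 members higher, where 6.44% of all genes were, and in sub-cluster 7, led by Dach1 and Il1rn, it was 0.56, with 8 of 23 higher, where 5.59% were. In sub-cluster 8, led by the macrophage elastase Mmp12, the level was 5402 CPM (5160 to 5652) in Tgfbr2-cKO against 2520 CPM (2381 to 2665) in Ctrl and 2156 CPM in ADWA11, a log2 ratio of 1.10 (1.00 to 1.20) to Ctrl. Of 21 members 16 were higher, where 9.36% of all genes were, and 0 were lower, where 12.8% were.

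In these Mmp12-led nuclei Egln3 was at 509 CPM in Tgfbr2-cKO, 96.1 CPM in Ctrl and 51.4 CPM in ADWA11 at 7 dpi. Gys1 was at 348, 94.1 and 62.5 CPM, Bnip3 at 256, 45 and 49.3 CPM and Ldha at 164, 45 and 51.4 CPM, in the same order. By 21 dpi the Mmp12-led nuclei of Ctrl and ADWA11 had summed levels of 1351 and 1201 CPM, with Egln3 at 5.97 and 0.341 CPM. The Tgfbr2-cKO value at 7 dpi rests on 70 nuclei. Without the 5 nuclei with the most member UMIs it was 4976 CPM.

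The neuron transcripts of the myeloid-like class were at 288 CPM in Tgfbr2-cKO at 7 dpi against 14.2 CPM in Ctrl, and median UMIs per nucleus at 3365 against 5349. At 21 dpi neuron transcripts were at 90.1 against 10.6 CPM. Fibroblast markers in this class were at 54.6 against 617 CPM at 7 dpi and 68.6 against 971 CPM at 21 dpi, and astrocyte markers at 208 against 98.8 CPM and 245 against 148 CPM. Without nuclei that hold a UMI of Snap25, Syt1 or Rbfox3 the class ratio at 7 dpi was 0.46, and without sub-cluster 1 it was 0.63. The part of composition and of RNA from these other cells in the single genes was not tested.

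ADWA11 went the other way in myeloid-like nuclei. The summed level was 1370 against 1602 CPM in Ctrl at 7 dpi (log2 ratio -0.23, -0.24 to -0.21) and 1058 against 1330 CPM at 21 dpi (-0.33, -0.36 to -0.30). At 7 dpi 3 of 30 members were higher (Ndrg1, Adm and Ankrd37), where 12.3% of all genes were, and 2 were lower (Hk2 and Pfkl), where 9.78% were. At 21 dpi 13 of 30 were lower, where 15.7% of all genes were, and 1 was higher (Ndrg1), where 8.41% were. The members' median log2 ratio at 21 dpi was -0.57, against -0.07 over all genes, with 27 of 30 members below 0, as were 58.4% of all genes.

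The lowest ratios at 21 dpi were those of Egln3, Ankrd37 and Slc16a3, while Egln1 and Kdm3a, the other dioxygenases, were not called. Egln3 differed by -3.51 (-4.05 to -3.00), from 13.4 to 1.17 CPM, Ankrd37, a small ankyrin-repeat protein induced by hypoxia, by -2.46 (-3.15 to -1.80), from 4.74 to 0.863 CPM, and Slc16a3 by -2.02 (-2.45 to -1.60). Pfkl differed by -1.55 (-1.78 to -1.31), Bnip3 by -1.03 (-1.28 to -0.78) and Pgk1 by -0.78. Gpi1 (-0.60), Gapdh (-0.85), Eno1 (-0.75), Pdk1 (-0.86), Mxi1 (-0.67), Hk2 (-0.78) and Slc16a1 (-0.63) were the other members called lower. For Pgk1 male nuclei alone gave -0.26.

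Ndrg1 was the exception. It was at 6.12, 13.1 and 13.1 CPM at 7 dpi and at 13.7, 32.1 and 12.4 CPM at 21 dpi, with ADWA11 ratios of 1.10 (0.84 to 1.37) and 1.23 (1.00 to 1.46). With its fibroblast-like values, Ndrg1 was above Ctrl under ADWA11 in both classes at both times. Ddit4 was at 0.604 to 1.29 CPM in 5 libraries and at 5.36 CPM in Tgfbr2-cKO at 21 dpi (2.05, 1.28 to 2.89), a value that came from female nuclei, with 2.54, against -0.63 in male nuclei. Slc16a1 was at 4.31, 4.91 and 4.7 CPM at 7 dpi and 9.69, 6.26 and 5.52 CPM at 21 dpi, where Ctrl was the highest library. Adm was at 0.363 to 2.18 CPM over the 6 libraries.

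The class was again made of different sub-clusters. At 7 dpi sub-cluster 2 held 442 member UMIs in Ctrl and 23984 in ADWA11. Within it the summed level was 1070 CPM in Ctrl and 1287 CPM in ADWA11. In sub-cluster 7 it was 1927 and 1991 CPM, while in sub-cluster 8 ADWA11 lay below Ctrl, as given above. Single members called at 7 dpi differed in direction between sub-clusters. In sub-cluster 3 Pfkp, Tpi1, Gapdh, Pgk1, Pgam1, Ldha, Bnip3, Ndrg1 and Higd1a were higher in ADWA11 and Hk2 was lower. In sub-cluster 1 Bnip3l and Higd1a were higher, and Gpi1, Pfkl, Pkm, Pfkfb3, Egln1 and Mxi1 were lower. Under ADWA11 at 21 dpi 3739 of 5696 myeloid-like nuclei lay in sub-cluster 0, led by the antigen-presentation genes Ciita and H2-Aa, and 59 in sub-cluster 1. In Ctrl 301 and 1148 of 3020 did. Within sub-cluster 0 the summed level was 1031 against 1019 CPM (log2 ratio 0.02), with 1 of 26 members lower, where 5.53% of all genes were. Within sub-clusters 2, 3, 4 and 8 the ratios were -0.05, -0.07, 0.00 and -0.17. In sub-cluster 1 it was 0.31, with 11 of 27 members lower, where 25.5% of all genes were, and 6 higher, where 12.4% were. With sub-clusters weighted equally the class ratio was 0.028, so the lower level of the class was not present within most of its sub-clusters. Hif1a, which encodes the inducible HIF α subunit, was also lower in the class, with 426, 151 and 540 CPM at 7 dpi and 315, 118 and 284 CPM at 21 dpi. In ADWA11 fibroblast markers of the class were at 342 against 617 CPM in Ctrl at 7 dpi. At 21 dpi they were at 501 against 971 CPM. Astrocyte markers were at 48.6 against 98.8 CPM and then at 51.3 against 148 CPM. Neutrophil markers were at 178 against 389 CPM and then at 215 against 271 CPM. Mitochondrial transcripts took 0.595% against 0.852% and then 0.176% against 0.433% of UMIs. The part of these in the levels was not tested.

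From 7 to 21 dpi in Ctrl the myeloid-like level went from 1602 to 1330 CPM (-0.27, -0.29 to -0.24), with 4 of 29 members lower (Gpi1, Gapdh, Pfkfb3 and Egln1), where 7.33% of all genes were, and 3 higher (Slc16a1, Ndrg1 and Ankrd37), where 16.2% were. Within sub-clusters the difference was largest among the Mmp12-led nuclei (-0.90), with 11 of 16 members lower, where 10.2% of all genes were. It was -0.53 in the proliferating sub-cluster, -0.44 in sub-cluster 1 and -0.09 in the border macrophage-like sub-cluster 4. Kdm3a, Pfkfb4, Bnip3l, Hk1, Pfkp, Pkm, Car9 and Car12 were past the fold in none of the 5 comparisons in myeloid-like nuclei. Car12 had 0 to 13 UMIs a library, and its 0 in Ctrl at 21 dpi allows up to 3 UMIs.

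**Figure D4:**
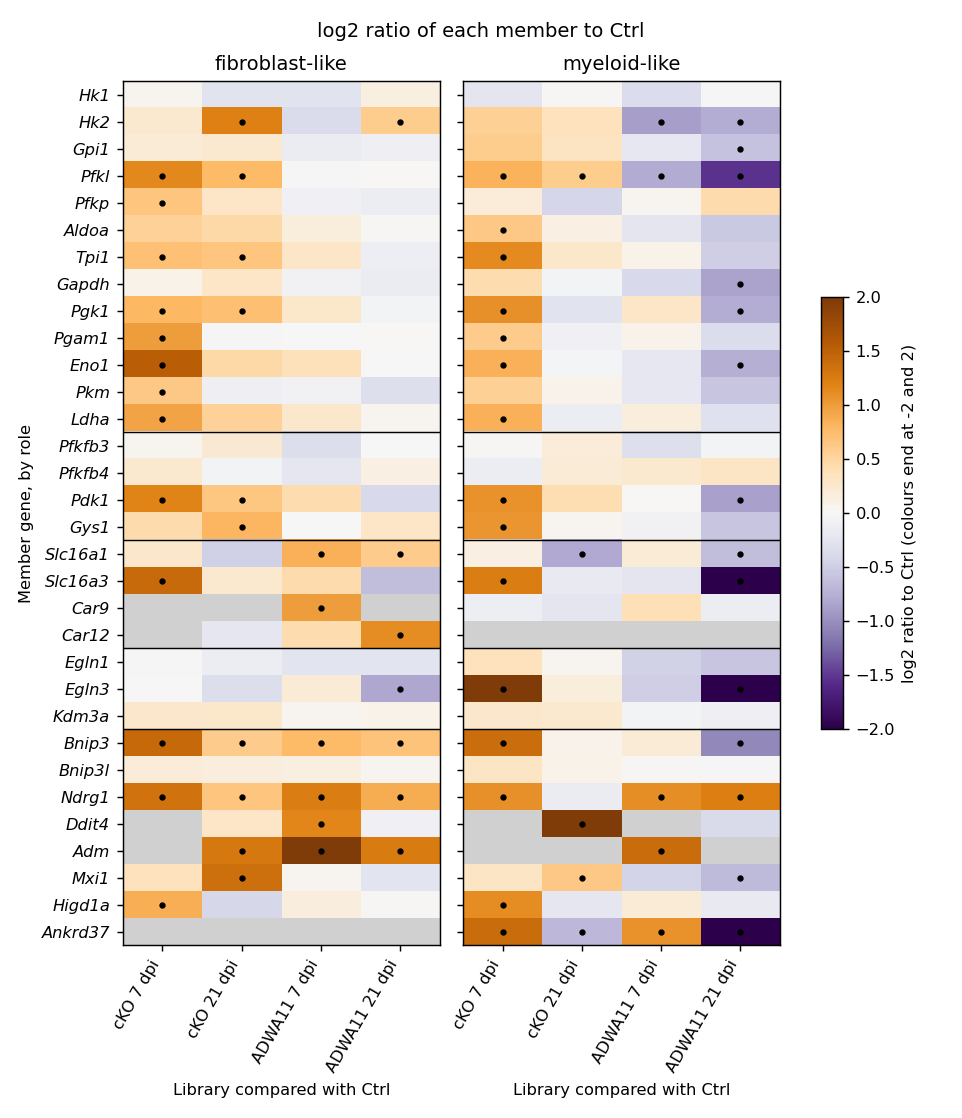
Log2 ratios to Ctrl of the 32 members (rows, ordered by role) in fibroblast-like and myeloid-like nuclei for Tgfbr2-cKO and ADWA11 at 7 and 21 dpi, with colours that end at -2 and 2, black dots for members past 1.5-fold and grey for members under 50 UMIs. The Tgfbr2-cKO columns at 7 dpi hold 13 and 15 dots, all higher than Ctrl, and the ADWA11 column of myeloid-like nuclei at 21 dpi holds 13 lower and 1 higher.

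Endothelial-like and astrocyte-like nuclei also held members past the fold. In endothelial-like nuclei of Tgfbr2-cKO at 21 dpi 7 of 25 members were higher (Gpi1, Pgam1, Pkm, Ldha, Slc16a1, Egln1 and Bnip3), where 7.59% of all genes were, and 0 were lower, where 10.7% were. Slc16a1, the lactate transporter of brain endothelium, was at 81.2 CPM there against 50.2 CPM in Ctrl and 13.5 CPM in ADWA11. Other markers moved with this comparison: in these nuclei the 7 neuron markers were at 162 CPM in Tgfbr2-cKO against 15.9 CPM in Ctrl, oligodendrocyte markers at 295 against 111 CPM, fibroblast markers at 334 against 2732 CPM, and mitochondrial transcripts took 1.31% against 0.63% of UMIs. Their part in the 7 genes was not tested. In astrocyte-like nuclei 0 of 27 members were higher in Tgfbr2-cKO at 21 dpi, where 9.9% of all genes were, and at 7 dpi 5 of 22 were (Pfkl, Gapdh, Eno1, Pfkfb4 and Mxi1), where 15.1% were, with 1 lower (Hk2), where 14.1% were. At 7 dpi the neuron markers there were at 298 against 49.9 CPM and the fibroblast markers at 220 against 950 CPM. The astrocyte markers themselves were at 10015 against 2924 CPM at 7 dpi and at 9178 against 4535 CPM at 21 dpi. The part of these markers was not tested either. Hk2 in astrocyte-like nuclei was also lower under ADWA11 at 21 dpi, together with Pfkl and Egln1, 3 of 26 members where 4.61% of all genes were. In endothelial-like nuclei 4 of 25 members were lower under ADWA11 at 21 dpi (Hk2, Gapdh, Slc16a1 and Ddit4), where 6.97% of all genes were, and Hk2 was at 7.49 CPM against 19.1 CPM in Ctrl. At 7 dpi Hk2 was the 1 member lower under ADWA11 in each of the 2 classes, at 15.1 against 41.2 CPM in astrocyte-like nuclei, where 7.76% of all genes were lower, and at 9.01 against 21.8 CPM in endothelial-like nuclei, where 4.55% were. Higher at 7 dpi were 2 of 21 members in astrocyte-like nuclei (Pfkfb4 and Slc16a1), where 6.6% of all genes were, and 2 of 19 in endothelial-like nuclei, where 8.94% were (Pgk1 at 29.6 against 11.7 CPM and Aldoa at 30.3 against 13.3 CPM).

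A further 58 genes of the same pathways gave a mixed picture, by the same rule. Hif3a, whose short forms restrain HIF, was at 2.71, 7.65 and 16.4 CPM in fibroblast-like nuclei at 7 dpi and at 3.75, 6.49 and 115 CPM at 21 dpi. Its log2 ratio in Tgfbr2-cKO at 21 dpi, 4.94 (4.66 to 5.22), was 5.63 in female and 3.08 in male nuclei, and in myeloid-like nuclei it was 4.62 (3.21 to 6.52), from 4 to 88 UMIs. Hif3a was also called higher in that comparison in astrocyte-like, endothelial-like, oligodendrocyte-like and oligodendrocyte precursor-like nuclei. It was not called in neuron-like, T cell-like or mural-like nuclei, so the difference was not particular to fibroblast-like nuclei. Aldoc, a brain aldolase, differed by 1.99 in fibroblast-like nuclei of Tgfbr2-cKO at 21 dpi and Pdk4 by 1.97, although male nuclei alone gave -0.091 for Pdk4.

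Of 17 further hypoxia-inducible genes, not all followed the 32. In fibroblast-like nuclei of Tgfbr2-cKO at 21 dpi 2 of 16 were higher and 7 lower, where 12.6% and 12.9% of all genes were. Among the lower were Plod2, Lox, Stc2, Vldlr, Bhlhe40 and Tfrc, and of these Plod2 and Lox are also known as genes of collagen matrix. In myeloid-like nuclei of Tgfbr2-cKO at 7 dpi 7 of 14 were higher, among them Vegfa, Slc2a1 and Ero1l, where 14.8% of all genes were, and 2 lower (Lox and Tfrc), where 6.5% were. Lox, a collagen cross-linking enzyme, differed at 7 dpi by -2.70 (-4.04 to -1.61). At 21 dpi the direction was the other in these nuclei of Tgfbr2-cKO. Of 14 genes 6 were lower (Vegfa, P4ha2, Plod2, Lox, Angptl4 and Bhlhe40) and 1 was higher (Hmox1), with the shares of all genes as given above for that comparison. Under ADWA11 at 21 dpi 7 of 15 were lower in myeloid-like nuclei, among them Vegfa, Slc2a1, P4ha1, Plod2, Lox and Ero1l, where 15.7% of all genes were, and 2 higher, where 8.41% were.

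Genes of oxidative phosphorylation differed little. Of 19 to 20 genes with enough UMIs, 0 to 3 were higher and 0 lower in fibroblast-like and myeloid-like nuclei in the comparisons with Ctrl, where 7.82% to 14.8% of all genes were higher and 5.21% to 15.7% lower. Of 14 genes of glucose and pyruvate handling 5 were higher in fibroblast-like nuclei of Tgfbr2-cKO at 21 dpi (Slc2a3, Aldoc, Ldhb, Pdk3 and Pdk4), where 12.6% of all genes were, and 0 lower, where 12.9% were. In myeloid-like nuclei Hif1a and Vhl, which encodes the protein that marks HIF for degradation, were both lower under ADWA11 at 7 and 21 dpi.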

How the data were processed

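The deposited values are whole-number UMI counts per gene and barcode, not normalised. Their headers name Cell Ranger 7.2.0 and mm10, and the submitters' processing notes give 7.1.0. Libraries were 10x 3′ single-nucleus libraries, 1 per group.

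From these counts, the 2.5% of barcodes at either end of the UMI and gene numbers of a library were left out, as were the 2.5% with the highest share of mitochondrial UMIs. Nuclei were clustered on SCTransform residuals (sctransform 0.4.2, Seurat 5.3.0, R 4.3.3) without the members among the variable genes, and clusters were named by a marker rule (at least 3 markers in at least 5% of nuclei at 2 times the level elsewhere). Cluster 16 was neutrophil-like by this rule, but the name was not used and it is called unnamed here. No authors' annotation of cells was used, so a difference from the study may come from the rebuilt names. A fibroblast sub-cluster led by myeloid genes (67 to 2303 nuclei a library) was left out. The rule would also leave out a cluster made mostly of called doublets, but no nuclei of the 7 dpi libraries lay in such a cluster. Scrublet (scanpy 1.11.5) called doublets, which otherwise stayed in, with their removal as an alternative. Within a library the UMIs of a class were added up and divided by its non-mitochondrial UMIs (CPM). Intervals are exact Poisson for levels and exact conditional binomial for ratios, at 95%, and cover counting error only (scipy 1.17.1, numpy 2.4.6, pandas 2.3.3, Python 3.11.15). Values of named classes need 50 nuclei. The count of 50 UMIs, the 1.5-fold rule and a floor of 3 counts are as given in the text. The script was tested on simulated counts.

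The members and lists were chosen with earlier results of these data known. Named are, per class, up to 12 members past the fold in at least 1 of 5 comparisons, by the largest ratio; by class, members at least 2 times the next class in Ctrl; and 3 further pathway genes per class, of which 1 is not reported here. Promoters shown are of named members whose RefSeq start lies within 50 bases of the annotated start. Coordinates are GRCm38. Near-identical copies could take reads: a second Aldoa identifier held 340 UMIs and Eno1b held 88. Hk1, Hk2, Pfkp, Aldoa, Tpi1, Gapdh, Pfkfb3, Gys1, Car9, Bnip3, Ndrg1, Adm, Mxi1, Higd1a and Ankrd37 overlap annotated genes on the other strand, and Slc16a1 overlaps Gm43581 and Gm43585 on its own. Alternatives were log-normalised clustering, a pooled filter, nuclei of 1 sex, doublet removal, TMM scaling (edgeR 4.0.16 for the factors only), the mean per nucleus, leaving out the leading member, neuron-transcript nuclei or the top 5 nuclei of a gene, 2-fold, and no UMI minimum.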

Additional observations from a re-analysis of the deposited data

Results flagged for a closer look

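Results of opposite direction were found for 4 members, each past 1.5-fold on both sides. The difference between the 2 effects was not tested in any of them. The share of all genes with calls of opposite direction in myeloid-like nuclei between times was 1.69% for Tgfbr2-cKO and 1.2% for ADWA11 (1 of 29 members each), and the share between fibroblast-like and myeloid-like nuclei of ADWA11 at 21 dpi was 1.1% (3 of 28 members). In myeloid-like nuclei Ankrd37 was above Ctrl at 7 dpi and below it at 21 dpi, by 1.40 and -0.68 (log2) for Tgfbr2-cKO and by 1.07 and -2.46 for ADWA11. The 21 dpi value in Tgfbr2-cKO was 0.28 in male nuclei alone. Ankrd37 itself was at 2.3 CPM in Ctrl at 7 dpi and at 4.74 CPM at 21 dpi.

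Under ADWA11 at 21 dpi, 3 members stood above Ctrl in fibroblast-like and below it in myeloid-like nuclei. The log2 ratios were 0.59 and -0.78 for Hk2, 0.60 and -0.63 for Slc16a1, and 0.68 and -1.03 for Bnip3. Within myeloid sub-cluster 0, which held most nuclei of the class under ADWA11, they were 0.23 (-0.05 to 0.52) for Hk2, -0.33 (-1.26 to 0.77) for Slc16a1 and -0.00 (-0.84 to 0.98) for Bnip3. Of the other myeloid sub-clusters, Hk2 was called higher in sub-cluster 1 and lower in sub-cluster 3. Slc16a1 was called higher in sub-clusters 1 and 3, and Bnip3 higher in sub-cluster 2 and lower in sub-cluster 1.

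The summed level of the 32 genes was also above that of each named class in a cluster that no comparison used, the unnamed cluster 24, led by markers of myeloid cells, T cells and neutrophils together. It stood at 4899 (Ctrl), 4235 (ADWA11) and 4601 CPM (Tgfbr2-cKO) at 7 dpi, and in the same order at 2861, 2517 and 3654 CPM at 21 dpi, on 32 to 113 nuclei a library. Ribosomal transcripts took 9.29% to 13.5% of its UMIs, against 0.322% to 0.527% in myeloid-like nuclei, and the part of that in the level was not tested.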

How the results depend on the processing

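No paired analysis was run, and each group is 1 library. Female and male nuclei alone are the values of the single mouse of that sex in each library, so that mouse and sex cannot be told apart, and no group has 2 mice of a sex. Every summed log2 ratio kept its direction except 1. Of 115 alternatives for summed ratios 56 moved by more than counting error and 1 reversed, and of 210 for counts of members 19 moved by over 1.5 times. TMM scaling shifts every gene of a comparison alike, by -0.17 in fibroblast-like and -0.11 in myeloid-like nuclei of Tgfbr2-cKO at 7 dpi, by 0.11 in myeloid-like nuclei of ADWA11 at 21 dpi and by -0.10 in myeloid-like nuclei of Ctrl between times. Causes were not tested beyond what each setting does by construction.

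Fibroblast-like values are given as Tgfbr2-cKO at 7 and 21 dpi, ADWA11 at 7 and 21 dpi, and Ctrl 21 against 7 dpi. Female nuclei alone gave 0.73, 0.56, 0.15, 0.034 and -0.10 (with 3 members past the fold in ADWA11 at 21 dpi, where 11.6% of all genes were), male nuclei 0.40, 0.41, 0.020, 0.15 and -0.20, and TMM 0.32, 0.44, 0.019, 0.065 and -0.22. Without Mxi1 the moved values were 0.32 (Tgfbr2-cKO, 21 dpi), 0.13 (ADWA11, 21 dpi) and -0.10 (Ctrl). At 2-fold the counts of members were 6, 3, 3, 2 and 4, where 8.91%, 14.2%, 7.2%, 5.37% and 17.5% of all genes were past it.

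Myeloid-like values that moved, in the same order, were 0.57, -0.15, -0.37 and -0.30 in female nuclei (all but Tgfbr2-cKO at 21 dpi), 0.38, -0.34 and -0.30 in male nuclei (Tgfbr2-cKO at 7 dpi and ADWA11 at both times), 0.40, 0.16, -0.22 and -0.37 under TMM (all but ADWA11 at 7 dpi), and 0.58, -0.38 and -0.21 without Pfkfb3 (Tgfbr2-cKO at 7 dpi, ADWA11 at 21 dpi and Ctrl). The mean CPM per nucleus gave -0.25 for ADWA11 at 7 dpi and -0.31 for Ctrl, and leaving out neuron-transcript nuclei 0.46 for Tgfbr2-cKO at 7 dpi. At 2-fold the counts were 1 (Tgfbr2-cKO, 21 dpi), 3 (ADWA11, 7 dpi), 6 (ADWA11, 21 dpi) and 3 (Ctrl), where 8.41%, 10.4%, 13.4% and 11.1% of all genes were past it. The log2 ratio of myeloid-like over fibroblast-like in Ctrl was 0.88 in female and 0.76 in male nuclei at 7 dpi, and 0.62 under TMM and 0.64 with the mean per nucleus at 21 dpi.

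Further alternatives were chosen after seeing the data. Returning the left-out fibroblast sub-cluster gave 0.43 (Tgfbr2-cKO, 21 dpi), 0.022 and 0.060 (ADWA11). Without myeloid sub-cluster 3 the 5 ratios were 0.40, 0.16 (3 members past the fold, where 16.8% of all genes were), -0.34, -0.37 and -0.34, and without sub-cluster 1 they were 0.63, 0.14, -0.16, -0.17 (7 members, where 21.1% were) and -0.37. Equal weight of sub-clusters gave 0.38, 0.24, 0.042 (ADWA11, 21 dpi) and -0.0065 (Ctrl) in fibroblast-like nuclei and 0.61, 0.24, -0.059, 0.028 and -0.38 in myeloid-like nuclei, where ADWA11 at 21 dpi reversed.

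Of single genes, 4 reversed in male nuclei alone: Hk2 in fibroblast-like Ctrl between times (0.013), Pdk4 in fibroblast-like Tgfbr2-cKO at 21 dpi (-0.091), and Ankrd37 (0.28) and Ddit4 (-0.63) in myeloid-like Tgfbr2-cKO at 21 dpi. Low counts limit Adm, Car9, Car12, Ddit4 and Ankrd37 most.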
